A study of Mus musculus with 8 samples.

Results

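The genes *Camta1*, *Mxi1*, *Dlx4*, *Mapk4* and *Deaf1* were described by their accessible regions in mouse spermatogonia before and after retinoic acid (RA). They were chosen by measured values of these libraries. Of the regions where every one of the 8 libraries had a peak, the 5 whose height rose most from 0 to 120 h post-RA were the ones listed with these genes. Their rise from 0 to 120 h is therefore given as a description, with no test. Peaks that overlapped by at least 1 bp in any libraries were merged into regions. By the gene names in the deposited table, 386 of 328733 peaks and 93 of 87144 regions belonged to the 5 genes, which are 5 of the 21490 genes named there. Regions with a peak in all 8 libraries are called shared regions here and made up 17.8% of all regions. Of the 93 regions, 24 were shared. These were the 5 rising regions, for which the choice required it, and 19 of the 88 others.

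ATAC-seq was done on germ cells sorted for PIWIL2-eGFP, with 2 libraries at each of the timepoints 0, 18, 48 and 120 h after RA. All mice carried the PIWIL2-eGFP transgene, in which the *Piwil2* promoter drives GFP in germ cells from before birth through early spermatids, on a background given by the labels as C57BL/6 x 129s4/SvJae. Mice of all 4 timepoints received WIN 18,446, an inhibitor of RA synthesis, for 7 days from 2 days post partum, and the 18, 48 and 120 h mice were then injected with RA at 9 days post partum. The 0 h mice received no injection. The later timepoints therefore differ from 0 h in the RA, the injection and the age of the mice. The study assigns 0, 18, 48 and 120 h to undifferentiated A, A1/A2, A3 and B spermatogonia, so the cell type differs as well. These differences cannot be told apart. The testes of 1 mouse gave 1 library. Of 8 germ cell marker genes, 6 had a peak within 1000 bp of their start in all 8 libraries, the exceptions being *Nanos3* and *Piwil4*. Such a peak was present in all 8 libraries for 1 of 6 Sertoli cell markers (*Wt1*), 0 of 5 Leydig cell markers and 1 of 6 markers of other somatic cells (*Acta2*). It was present in 7 libraries for *Myh11*, 6 each for *Sox9* and *Gata4*, 3 each for *Amh* and *Lhcgr*, 2 for *Cldn11* and 1 for *Csf1r*. No library had it for 1 Sertoli, 4 Leydig and 3 other somatic markers. The share of all genes with such a peak was not computed, so these counts do not measure purity. The libraries held between 24643 and 72215 peaks. The height of a peak is its summit value, the coverage by tags after every library was reduced to the same number of tags. The median height of the 15536 shared regions was 224 and 270 before RA, 91 and 116 after 18 h, 86 and 102 after 48 h, and 166 and 106 after 120 h. The median log2 change of a shared region was -1.23 from 0 to 18 h, -0.13 from 18 to 48 h, 0.56 from 48 to 120 h and -0.75 from 0 to 120 h. Changes are therefore also given after each library was centred on its median. In these bulk libraries, fewer cells with an open region and less opening per cell cannot be told apart.

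ATAC-seq uses a transposase that inserts adaptors where DNA is not covered by nucleosomes, so that the height of a peak follows how open a site is. Promoters within CpG islands tend to be open in most cell types, while sites inside introns or far from genes differ more between cell types and stages. RA starts the differentiation of undifferentiated spermatogonia, which then divide as A and B spermatogonia before they enter meiosis. The 5 genes do not form a pathway. *Camta1* encodes a calmodulin-binding transcription activator. *Mxi1* encodes a partner of MAX that represses transcription and opposes MYC. *Dlx4* encodes a homeodomain protein of the distal-less family. *Deaf1* encodes a transcription factor with a SAND domain. *Mapk4* encodes ERK4, an atypical MAP kinase that binds the protein kinase MK5.

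The sequences at the summits of 4 of the rising regions are shown because these are the letters under the peaks that rose. Each window holds 300 bases of the GRCm38 plus strand around the 120 h replicate 1 summit. The *Camta1* window lies at chr4:151445451-151445750, the *Mxi1* window at chr19:53338891-53339190, the *Dlx4* window at chr11:95138411-95138710 and the *Deaf1* window at chr7:141317675-141317974. The last sequence is for contrast. It holds the 250 bases before the start of *Mxi1* at chr19:53310256-53310505, plus strand, from RefSeq (GRCm38.p6), whose promoter table held 3 of the 5 genes. Capitals mark every match, on either strand, to 12 sets of letters that were searched, each named after the factors or element it is known for: AGGTCA (retinoic acid receptors and other nuclear receptors), GGGCGG (the GC box), CCAAT (the factor NF-Y), CCGGAA (ETS factors), TGACGTCA (CREB), TGANTCA (AP-1), CACGTG (the E-box of MYC and MAX), GCATGCGC (the factor NRF1), ACAATG (SOX factors), AACTG (MYB factors), GTTGCC (RFX factors) and GGAATG (TEAD factors).
Camta1 rising region: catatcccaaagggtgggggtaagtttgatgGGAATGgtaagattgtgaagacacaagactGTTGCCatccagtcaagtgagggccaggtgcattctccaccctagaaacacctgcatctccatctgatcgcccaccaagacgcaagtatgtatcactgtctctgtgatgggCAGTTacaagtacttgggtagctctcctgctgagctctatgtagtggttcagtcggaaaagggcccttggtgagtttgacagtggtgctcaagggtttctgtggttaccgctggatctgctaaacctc
Mxi1 rising region: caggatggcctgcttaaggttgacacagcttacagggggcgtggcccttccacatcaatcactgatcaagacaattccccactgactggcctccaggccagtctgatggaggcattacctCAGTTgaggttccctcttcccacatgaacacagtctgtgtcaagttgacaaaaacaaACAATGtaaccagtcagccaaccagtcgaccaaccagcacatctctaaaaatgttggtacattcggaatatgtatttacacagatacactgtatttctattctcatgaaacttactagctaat
Dlx4 rising region: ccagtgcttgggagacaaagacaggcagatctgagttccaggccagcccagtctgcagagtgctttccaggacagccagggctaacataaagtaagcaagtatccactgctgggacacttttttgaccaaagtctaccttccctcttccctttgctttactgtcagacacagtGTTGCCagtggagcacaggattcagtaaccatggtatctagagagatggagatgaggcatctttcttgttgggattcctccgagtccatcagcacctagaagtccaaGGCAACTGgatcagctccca
Deaf1 rising region: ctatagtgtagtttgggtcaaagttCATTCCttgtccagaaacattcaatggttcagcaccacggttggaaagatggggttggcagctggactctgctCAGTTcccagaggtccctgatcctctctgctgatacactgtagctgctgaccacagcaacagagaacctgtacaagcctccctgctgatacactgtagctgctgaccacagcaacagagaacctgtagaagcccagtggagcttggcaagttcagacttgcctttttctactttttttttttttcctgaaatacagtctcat
Mxi1 promoter: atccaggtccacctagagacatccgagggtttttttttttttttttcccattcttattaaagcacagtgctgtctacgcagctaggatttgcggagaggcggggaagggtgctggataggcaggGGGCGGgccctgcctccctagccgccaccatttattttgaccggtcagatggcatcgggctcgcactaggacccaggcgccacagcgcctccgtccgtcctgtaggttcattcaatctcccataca

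The rising windows were poor in CpG. They held 4 CpG dinucleotides at *Camta1*, 3 at *Mxi1*, 1 at *Dlx4*, 5 at *Mapk4* and 1 at *Deaf1*, against a median of 19 in the windows of all 15536 shared regions and of 6 in the 6434 shared regions without a CpG island. The 250 bases of the *Mxi1* promoter held 13. No rising region overlapped a CpG island in the deposited table, whereas 58.6% of shared regions did. The GC content of the 5 windows was between 45.3% and 52.7%, and the median was 61% in all shared regions and 51% in those without a CpG island. GGGCGG was in none of the 5 rising windows and in 53.3% of all shared windows (22.3% of those without a CpG island), and it occurred in the *Mxi1* promoter. AACTG was found in 4 of the 5 windows, all but that of *Mapk4*, and in 38.2% of all shared windows (50.5% of those without a CpG island). GTTGCC was found at *Camta1* and *Dlx4* (14.9% of all and 17.3% without a CpG island), GGAATG at *Camta1* and *Deaf1* (11.2% and 14.4%) and ACAATG at *Mxi1* (15.9% and 31.2%). AGGTCA, a form of the half-site of the retinoic acid receptors, was in none of the 5 windows, in 11.9% of all and in 15.2% of those without a CpG island. Other forms of the half-site were not searched across the windows, so this does not show that the windows lack a half-site. The *Deaf1* window shown holds GGGTCA and AGTTCA, each 1 base away from AGGTCA. Their shares in the shared windows were not computed. The other 6 sets of letters were also in none of them and occurred in 2.86% to 38.5% of all shared windows. At *Dlx4*, a match of AACTG overlaps a match of GTTGCC on the other strand. A match is a description of letters, and no match says only that these letters are not in the window.

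The *Deaf1* window was unlike the others in that a stretch of 46 bases occurred in it 2 times, with the starts of the copies 55 bases apart. They lie at chr7:141317799-141317844 and chr7:141317854-141317899. The stretch is shown with the letters ACACTGT in capitals, which are treated among the further observations.
Deaf1 repeated stretch: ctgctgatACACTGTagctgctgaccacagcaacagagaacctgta

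In the other 4 windows the longest repeated stretch had 7 or 8 bases. A repeated stretch of at least 20 bases was present in 6.2% of all shared windows. The parts of the windows that the genome file marks as repeats made up 44% at *Mxi1*, 35% at *Dlx4*, 25% at *Deaf1* and 0% at *Camta1* and *Mapk4*, against a median of 2.67% in all shared windows.

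The *Camta1* region at chr4:151445109-151446090, in an intron 416 kb from the start of the gene, had the largest rise in summit value of all shared regions. Its summit values were 107 and 93 before RA, 99 and 96 after 18 h, 82 and 137 after 48 h, and 568 and 425 after 120 h. Both 120 h values lay above the other 6, by at least 3.10-fold, and the values from 0 to 48 h overlapped. The rise from 0 to 120 h was 2.30 on the log2 scale, or 4.93-fold, and 3.19 on the log2 scale after centring. The region was 345 to 399 bp wide in each library before 120 h and 938 and 982 bp wide at 120 h, and it was a single peak in every library. The nearest annotated start (GENCODE) was that of the antisense gene 4930589P08Rik, 69.1 kb away.

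The *Mxi1* region at chr19:53338789-53339299 lies in an intron, 28.4 kb from the start. Its summit values were 71 and 41 before RA, 38 and 49 after 18 h, 59 and 49 after 48 h, and 407 and 152 after 120 h. The 120 h libraries were the highest and differed 2.68-fold from each other, and the earlier timepoints overlapped. The rise from 0 to 120 h was 2.20 on the log2 scale, or 4.61-fold, and 3.10 after centring. A start of another *Mxi1* transcript lay 8.63 kb away.

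The *Dlx4* region at chr11:95138294-95138786 lies downstream of the gene, 7.24 kb from its start, and the table lists A730090H04Rik with it. Its summit values were 83 and 54 before RA, 60 and 68 after 18 h, 96 and 128 after 48 h, and 439 and 195 after 120 h. Both 48 h values were above all 4 earlier ones, and both 120 h values were above those at 48 h. The rise was 2.13 on the log2 scale, or 4.37-fold, and 3.02 after centring.

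The *Deaf1* region at chr7:141317614-141318094 lies in an intron, 20.9 kb from the start that the table uses. Its summit values were 63 and 61 before RA, 94 and 77 after 18 h, 108 and 123 after 48 h, and 377 and 169 after 120 h. The values did not overlap between any timepoints and each timepoint was above the one before. The rise was 2.03 on the log2 scale, or 4.07-fold, and 2.92 after centring.

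The *Mapk4* region at chr18:73922061-73922439 lies beyond the 3′ end of the gene, 142.7 kb from its start, and the nearest annotated start was that of *Mro*, 58.6 kb away. Its summit values were 85 and 51 before RA, 141 and 189 after 18 h, 152 and 203 after 48 h, and 309 and 239 after 120 h. The largest step was the first: the 18 h height was 2.48-fold that at 0 h, and the 120 h height was 1.55-fold that at 48 h. In the other 4 regions the largest step was the last, but after centring the first was the largest also at *Dlx4* and *Deaf1*, with log2 changes of 1.19 and 1.72. The rise from 0 to 120 h was 2.05 on the log2 scale, or 4.13-fold, and 2.94 after centring. The width was 377 to 379 bp in all 8 libraries, while the height changed.

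**Figure D1:**
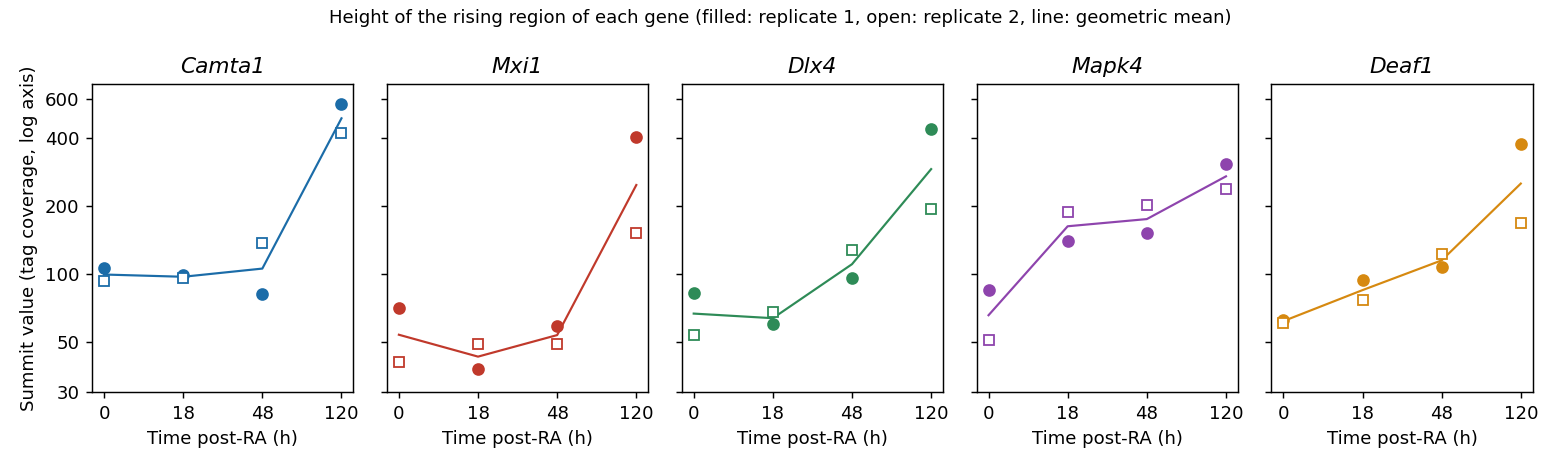
Summit value (tag coverage, log axis) of the rising region of each gene against time post-RA, with filled circles for replicate 1, open squares for replicate 2 and lines through the geometric means. Camta1 and Mxi1 stay between 38 and 137 until 48 h and reach 152 to 568 at 120 h, whereas Mapk4 is already at 141 and 189 after 18 h.

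The 120 h values were above all 6 others in each of the 5 regions, as in 1.82% of shared regions, but this follows largely from the choice of the regions. Replicate 1 was the higher of the 120 h libraries in all 5, by 1.29-fold to 2.68-fold, as it was in 96.1% of shared regions. The sixth region by rise, just outside the 5, was chr12:110202235-110202614, which has no gene listed, with summit values of 41 and 49 before RA, 137 and 137 after 18 h, 122 and 150 after 48 h, and 222 and 143 after 120 h. Its rise was 1.99 on the log2 scale, against 2.03 for *Deaf1*, the smallest of the 5.

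Relative to the other regions of the same library, the rising regions started low. At 0 h they stood at 0.152 to 0.478 of the library's median height, and at 120 h at 1.43 to 4.01 times the median. Both follow largely from the choice of the regions by their rise. The 0 h heights were near the bottom of each library, with 0.0837% (*Mxi1*) to 8.81% (*Camta1*) of shared regions lower. The *Mapk4* and *Deaf1* regions had higher summit values in both 18 h libraries than in both 0 h libraries, which was the case for 0.483% of shared regions. Between 0 and 18 h the height of *Camta1* changed by -0.03 on the log2 scale, that of *Mxi1* by -0.32, that of *Dlx4* by -0.07, that of *Deaf1* by 0.46 and that of *Mapk4* by 1.31, where the median of all shared regions was -1.23. These differences share the 0 h libraries with the choice of the genes and were not tested.

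**Figure D2:**
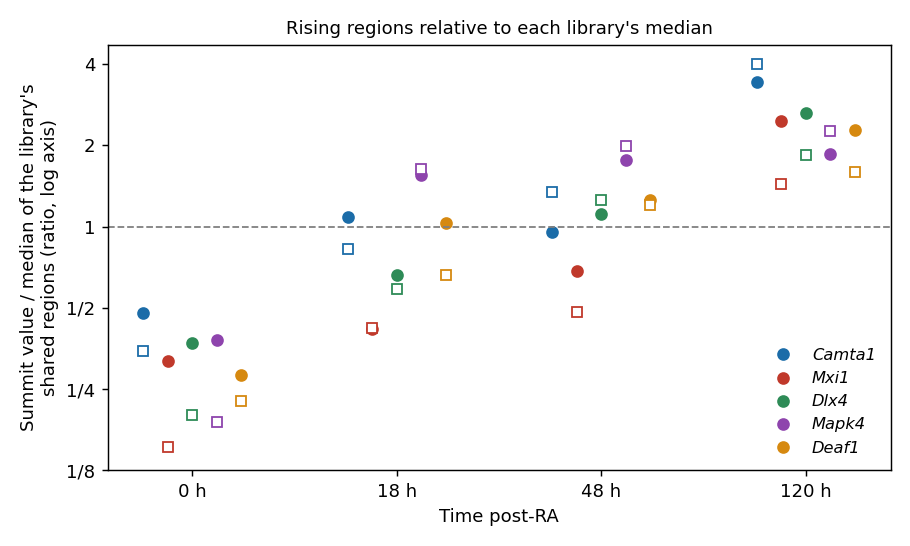
Summit value of each rising region divided by the median height of the library's shared regions (ratio, log axis) at each time post-RA, with filled circles for replicate 1 and open squares for replicate 2; the dashed line is a ratio of 1. All 5 regions lie between 0.152 and 0.478 at 0 h and between 1.43 and 4.01 at 120 h, and at 18 h both libraries of Mapk4 lie above 1.

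The change from 18 to 48 h was computed from the 18 and 48 h libraries alone. The choice of the genes required a peak in each of these libraries but did not use their heights, so the change could be tested. Every region tested met the same requirement. The error of the change was estimated from all 8 libraries and all regions together. Without centring it was the same for every region (standard error 0.37), so the intervals do not reflect the spread of a single region. None of the 5 rising regions passed. The log2 change was 0.12 for *Camta1* (95% interval -0.61 to 0.85), 0.32 for *Mxi1* (-0.41 to 1.05), 0.80 for *Dlx4* (0.07 to 1.52), 0.11 for *Mapk4* (-0.62 to 0.83) and 0.44 for *Deaf1* (-0.29 to 1.17). The adjusted p from limma over all 15536 regions was 1 for each. After centring it was between 0.802 and 0.933. At an unadjusted p under 0.05, 1 of the 5, *Dlx4*, passed, as did 1.73% of shared regions, and *Dlx4* and *Deaf1* passed after centring, as did 5.9%. Both 48 h values were above both 18 h values at *Dlx4* and *Deaf1*, which was the case for 5.22% of shared regions. In all, 1 of 15536 regions (0.00644%) passed the adjusted threshold in this step, a region at G530011O06Rik on chromosome Y that was lower at 48 h. With 2 libraries a timepoint, an adjusted p that misses the threshold does not show that the regions kept their height.

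None of the other shared regions of the 5 genes passed as higher. Of the 19, 8 (42.1%) were lower at 120 h than at 0 h and 0 higher at an adjusted p under 0.05 from limma, where 44.8% of all shared regions were lower and 0.882% higher. Their median log2 change was -0.65, against -0.75 for all shared regions. At an unadjusted p under 0.05, 1 of the 19 was higher, the *Camta1* region at chr4:151588413-151588810. Without 0 h replicate 2 the number lower was 2, and without 120 h replicate 2 it was 3. After centring, 1 (5.26%) was lower and 7 (36.8%) were higher, against 15.8% and 23% of all shared regions, and the median was 0.24. Between 0 and 18 h, 15 of the 19 (78.9%) were lower, as were 92.3% of all shared regions. After centring this became 0 lower and 1 higher, against 0.225% and 1.25% of all. Between 48 and 120 h, 6 of the 19 (31.6%) were higher, as were 23.7% of all. After centring 4 were higher and 3 lower, against 9.47% and 7.45% of all.

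**Figure D3:**
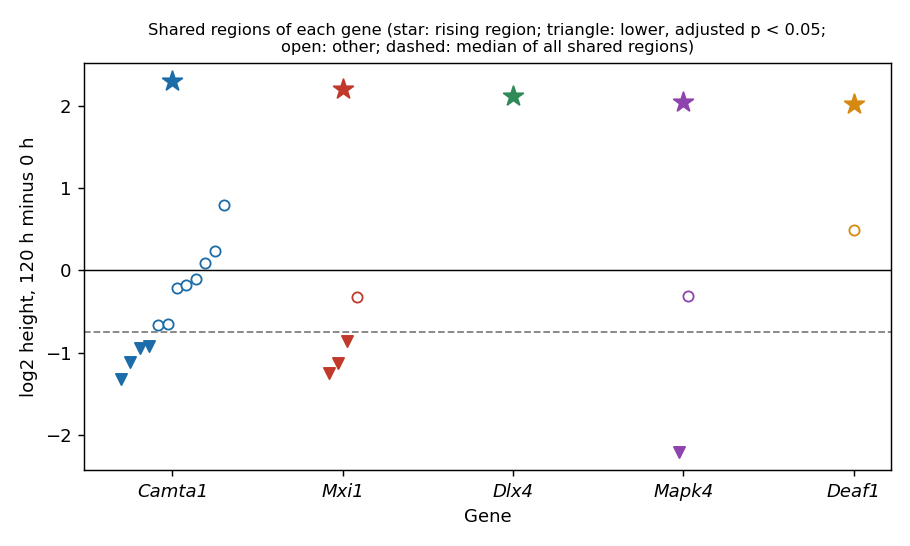
Difference in log2 height between 120 and 0 h for the 24 shared regions of the 5 genes, by gene; stars are the 5 rising regions, triangles are regions lower at an adjusted p under 0.05 from limma, open circles are the other regions and the dashed line is the median of all shared regions. The stars lie between 2.03 and 2.30, and the other 19 regions between -2.21 and 0.80.

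At *Camta1*, the CpG island region at the start, chr4:151861606-151862736, is listed also with 9230110K08Rik. It had values of 1100 and 1226 before RA, 425 and 665 after 18 h, 399 and 495 after 48 h, and 1174 and 900 after 120 h. Its values were lowest at 18 and 48 h, and from 0 to 120 h its log2 height changed by -0.18 (standard error 0.37, adjusted p = 0.719 from limma). After centring it passed as higher, by 0.71 on the log2 scale (adjusted p = 0.0160 from limma). Among the other 11 shared regions of *Camta1*, the intron region at chr4:151175544-151176070 had the largest fall, from 355 and 330 before RA to 230 and 81 after 120 h, a log2 change of -1.33 (standard error 0.37, adjusted p = 0.00159 from limma). It was lower past the threshold in 11 of 15 fits and not after centring (log2 change -0.44, adjusted p = 0.251 from limma), with quantile normalization or without 120 h replicate 2. The intron region at chr4:151588413-151588810, 273 kb from the start, had the largest positive change of the 19. Its values were 36 and 37 before RA, 47 and 40 after 18 h, 40 and 49 after 48 h, and 86 and 47 after 120 h. The log2 change of 0.80 did not pass (adjusted p = 0.0644 from limma). It passed after centring (log2 change 1.69, adjusted p = 0.000293), with an intensity trend (adjusted p = 0.0161) and without 120 h replicate 2 (adjusted p = 0.00905). Each p is from limma. In height, the rising region was number 25 of 51 *Camta1* regions with a peak in 0 h replicate 1 and number 33 of 54 in replicate 2. At 120 h it was number 3 in both libraries, of 32 and of 19.

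**Figure D4:**
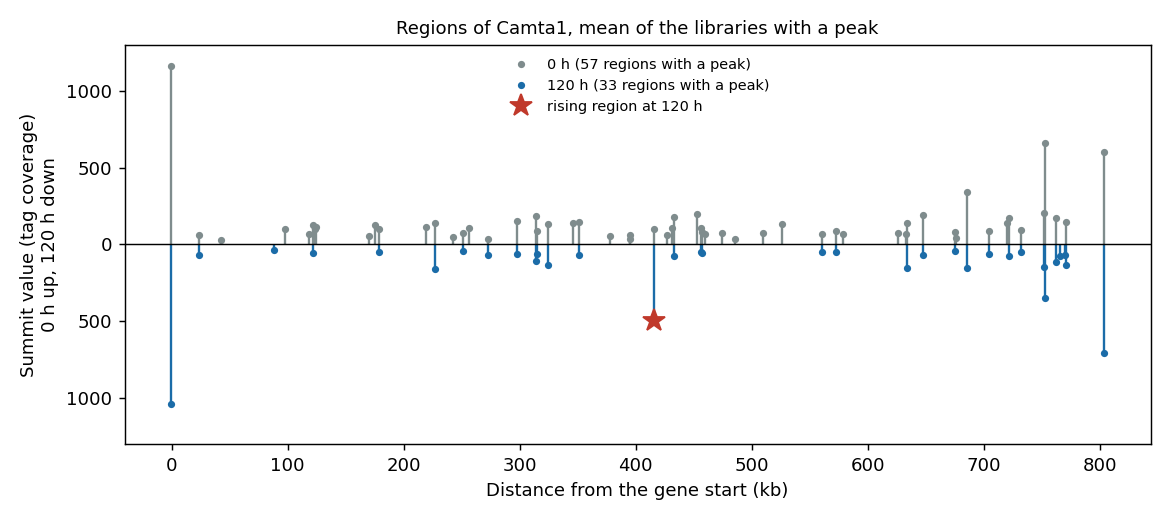
Summit value (tag coverage, mean of the libraries with a peak) of the regions of Camta1 against distance from the gene start in kb, with 0 h drawn upwards and 120 h downwards; the star marks the rising region. Peaks were present in at least 1 library in 57 regions at 0 h and in 33 at 120 h, and the rising region is the third highest at 120 h.

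At *Mxi1*, all 4 of the other shared regions had negative changes, and 3 of them passed. After centring none of the 4 passed, and 2 had positive values. The region at the start, chr19:53310319-53310670, which overlaps the promoter sequence shown, had values of 210 and 256 before RA, 108 and 125 after 18 h, 107 and 134 after 48 h, and 127 and 89 after 120 h. Its log2 change was -1.12 (standard error 0.37, adjusted p = 0.00783 from limma), so both 120 h values lay below both 0 h values whereas in the rising region they lay above. The CpG island region at chr19:53329125-53330681, at the starts of other *Mxi1* transcripts, changed by -1.25 on the log2 scale (adjusted p = 0.00305 from limma). After centring their log2 changes were -0.23 and -0.36 (adjusted p = 0.346 and 0.250 from limma). The third, the intron region at chr19:53313581-53314549, had an adjusted p of 0.0450 from limma and was lower past the threshold in 4 of 15 fits, with a log2 change of 0.03 after centring. The region at chr19:53322638-53323049 changed by -0.32, and by 0.57 after centring (adjusted p = 0.493 and 0.0519 from limma). The rising region was among the lowest of the gene at 0 h, number 7 of 7 and 8 of 8, and number 2 of 7 and 3 of 6 at 120 h. The *Mxi1* region at chr19:53363075-53363361 had a peak in the 120 h libraries alone, with values of 47 and 45, a pattern found in 0.954% of all regions.

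*Mapk4* held the strongest fall among the 19. The intron region at chr18:73962858-73963762, 101 kb from the start, had values of 304 and 306 before RA, 138 and 144 after 18 h, 97 and 98 after 48 h, and 74 and 59 after 120 h. Each timepoint was below the one before with no overlap, and the share of shared regions in such an order is not given here. Its log2 change was -2.21 (standard error 0.37, adjusted p = 1.05e-07 from limma), and -1.32 after centring (adjusted p = 0.000952 from limma). It was lower past the threshold in all 15 fits made on these summit values. Neither of the 2 regions at the *Mapk4* start, at chr18:74063703-74064405 and chr18:74065086-74065567, had a peak in any 120 h library, and both had one in both 0 h libraries, with values of 53 to 78.

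At *Deaf1*, the single other shared region was the CpG island region at chr7:141327556-141328704, which covers the GENCODE start of the gene and is listed also with *Tmem80*. It had values of 177 and 252 before RA, 99 and 95 after 18 h, 110 and 125 after 48 h, and 351 and 251 after 120 h. From 0 to 120 h its log2 height changed by 0.49 (standard error 0.37, adjusted p = 0.276 from limma), and by 1.38 after centring (adjusted p = 0.000666 from limma). The start that the table uses lies further upstream, and its region at chr7:141338578-141339259 had a peak in the 0 h libraries alone, with values of 46 and 63. That region is listed also with *Eps8l2* and *Tmem80*. *Dlx4* had no other shared region. The region at its start, chr11:95145831-95146372, listed also with A730090H04Rik, had values of 95 and 91 before RA. It had a peak of 55 in 120 h replicate 1, and no peak in the other 5 libraries. The rising region was thus the only *Dlx4* region with a peak in 120 h replicate 2.

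Most of the other regions of the genes were not shared. Of the 88 regions outside the rising ones, 65 had a peak in both 0 h libraries, and 17 of these (19.3% of 88) had none in any later library, where 21.4% of all regions were of this kind. By gene these were 12 of 60 at *Camta1*, 1 of 9 at *Mxi1*, 0 of 2 at *Dlx4*, 3 of 10 at *Mapk4* and 1 of 7 at *Deaf1*. A further 8 of the 88 had no 0 h peak, and 1 of these had a peak in both 120 h libraries, the *Mxi1* region at chr19:53363075-53363361.

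Outside the rising regions the 5 genes held 72 and 76 peaks at 0 h, 27 and 40 after 18 h, 27 and 33 after 48 h, and 44 and 27 after 120 h. Both 0 h libraries had more than every later one. The mean was 74 ± 2.83 (SD, n = 2) at 0 h and 33 ± 7.46 (SD, n = 6) later, 41 more before RA. The p of a two-sided exact permutation test was 0.0714, the smallest this design allows. *Camta1*, *Mapk4* and *Deaf1* each had more peaks in both 0 h libraries than in every later one, which was the case for 36.9% of all genes. The ratio of 0 h to later peaks was 2.24 for the 5 genes and 1.85 over the peaks listed with all genes, and it was 2.26 over all peaks of the libraries. When each library was limited to its highest peaks, equal in number to those of the library with the fewest, the counts were 35 and 37 before RA and 26 to 30 later. The difference was then 7.83, with the same p.

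**Figure D5:**
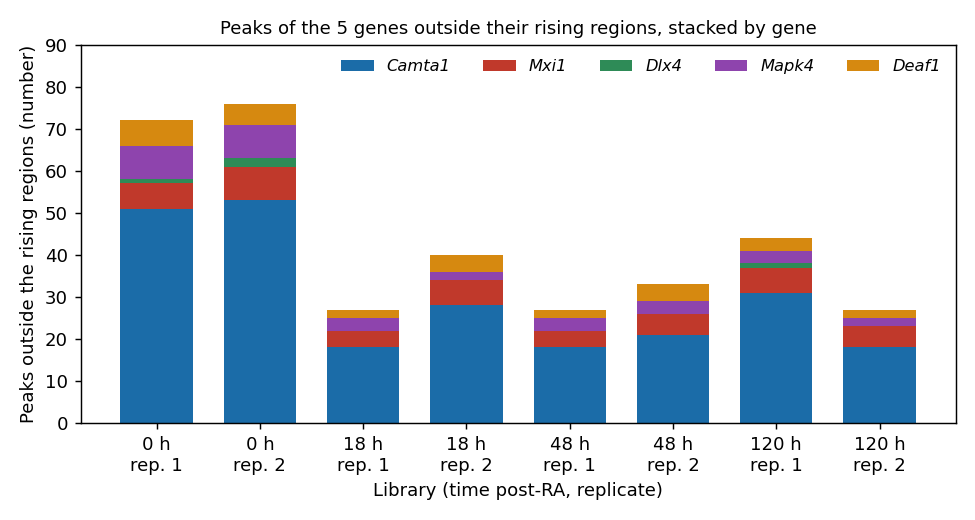
Number of peaks outside the rising regions in each library (time post-RA and replicate), stacked by gene. The 0 h libraries hold 72 and 76 peaks and the 6 later libraries between 27 and 44, and Camta1 contributes the most in every library.

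The time courses of the 5 rising regions were not alike. As a measure of likeness, the 8 log2 heights of a region were taken minus their own mean, and the root mean square difference between regions was computed over the 8 libraries. *Dlx4* and *Deaf1* were the closest pair (0.31), and *Mxi1* and *Mapk4* the farthest apart (0.87). Nearest to *Camta1* among all shared regions were a region with no gene listed on chromosome 12 (0.28), a region at *Ttc34* (0.33) and a region with no gene listed on chromosome 19 (0.34). Nearest to *Mxi1* were a region at *Greb1* (0.27), the same chromosome 19 region (0.32) and a region with no gene listed on chromosome 2 (0.35). Nearest to *Dlx4* were regions at *Dock8* (0.25), *Thra* (0.29) and *Sult4a1* (0.29), and *Sult4a1* (0.17) and *Thra* (0.18) were also the nearest to *Deaf1*, ahead of a region with no gene listed on chromosome 9 (0.24). The *Thra* region, at a gene for a thyroid hormone receptor, had values of 117 and 114 before RA, 136 and 136 after 18 h, 186 and 198 after 48 h, and 542 and 357 after 120 h. *Mapk4* had the nearest neighbours of all, a region at *Arl1*, *Gm4925* and *Utp20* (0.13) and regions with no gene listed on chromosomes 4 (0.13) and 10 (0.16). The first 2 of these were 381 bp wide, close to the 379 bp of the *Mapk4* region.

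Genes of the same families and partners of the 5 proteins were looked at in 5 lists of 37 genes in all, of which 29 had a shared region. Of their 50 shared regions, 18 (36%) were lower at 120 h than at 0 h and 0 higher at an adjusted p under 0.05 from limma, against 44.8% and 0.882% of all shared regions. Their median log2 change was -0.64. At an unadjusted p under 0.05, 0 of the 50 were higher. After centring, 5 were lower and 12 higher, against 15.8% and 23% of all shared regions. In the MAX network, to which *Mxi1* belongs, 7 of 24 regions were lower, and 2 of 4 regions of other DLX genes, 2 of 6 regions of *Camta2* and the calmodulin genes, 5 of 8 regions of atypical MAP kinases and their partners, and 2 of 8 regions of other SAND domain genes and *Lmo4*. Without 0 h replicate 2, 6 of the 50 were lower, without 120 h replicate 1 28, and without 120 h replicate 2 7.

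The 4 largest changes in these lists were all falls. The region at chr2:119978482-119979157, downstream of *Mga*, a MAX partner, and listed also with *Mapkbp1*, had values of 766 and 524 before RA and 159 and 63 after 120 h, so that its log2 height fell by 2.66 (adjusted p = 1.57e-10 from limma). A region within *Sp100*, a SAND domain gene, changed by -1.97 (adjusted p = 2.16e-06 from limma). The region at the start of *Pak1*, a kinase that phosphorylates ERK4, changed by -1.86 (adjusted p = 7.97e-06 from limma). That at the start of *Mapk15*, another atypical MAP kinase, listed also with *Fam83h*, changed by -1.58 (adjusted p = 0.000154 from limma). All 4 had negative values after centring as well, with log2 changes of -1.77, -1.08, -0.97 and -0.69, but several regions then had larger positive changes than that of *Mapk15*. Among these was a region at the start of *Mxd3*, a MAX partner, listed also with *Prelid1* and *Rab24*, at 0.91 (adjusted p = 0.00800 from limma). A region downstream of *Gmeb1*, a SAND domain gene, listed also with *Ythdf2* and *Rps15a-ps4*, changed by 0.85 (adjusted p = 0.0137 from limma). That at the *Gmeb1* start, listed also with *Rnu11*, changed by 0.09 (adjusted p = 0.769 from limma). The region at the start of *Nlk*, a kinase, changed by 0.80 (adjusted p = 0.00670 from limma). The *Mxd3*, *Nlk* and downstream *Gmeb1* regions were chosen after their values were seen.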

How the data were processed

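ATAC-seq libraries of sorted PIWIL2-eGFP germ cells, 2 at each of 4 timepoints, were analysed from the table of peaks that the authors deposited. Per the study's methods, reads were aligned to mm10 with BWA mem (version 0.7.12 in the submitters' processing notes), duplicates were removed, alignments were extended to 200 bp and placed in 32-nt bins, and MACS 2.1.0 called peaks in each library separately at a p of 1e-07 with no control, after which peaks on the ENCODE blacklist were removed. Whether insertion sites were shifted is not given in the sources used here. The 2 signal columns that the authors deposited, the summit value and the mean value of a peak, are tag coverage after each library was reduced to one number of tags, so no interval for counting error was made from them. The read counts per region behind the study's own tests were not used here. The files of browser tracks and links were not used.

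Peaks overlapping by at least 1 bp were merged. Coordinates are given 1-based. As its height, a region took in each library the largest summit value inside it, on the log2 scale and without further scaling. For the 15536 shared regions, a linear model of the 4 timepoints was fitted in R 4.3.3 (lmFit and eBayes of limma 3.58.1), and p-values were adjusted after Benjamini and Hochberg at a threshold of 0.05. Without centring, this fit gave every region the same standard error (0.37). Its p-values therefore follow the size of the change and not the spread of a region's own libraries. Regions without a peak in some library have no height there and were described by the presence of peaks. On simulated data for 120 h against 0 h in these 15536 regions, the fit recovered 20% of regions changed by 1 on the log2 scale, 98% of those changed by 2 and 100% of those changed by 3. The simulated noise was independent with the same spread in all regions, with no shift between libraries and 50 regions changed at each size. Far more regions passed in the real contrast, so these shares do not give the recovery in the data. Numbers of peaks were compared by exact permutation tests in Python 3.11.15 with scipy 1.17.1. Sequences came from the GRCm38 genome and RefSeq, features from GENCODE vM21.

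The members and the gene lists were chosen with earlier results of these data known. Named were the regions of the 5 genes, the sixth region by rise, the 3 regions most like each rising region, and the 4 largest changes past the threshold in the related lists. The region that passed from 18 to 48 h was named after its values were seen. Replicate numbers did not pair the libraries, and a fit with the number as a block was an alternative, as were other scalings, the mean signal, fewer libraries, an intensity trend, a minimum value, other region building and each library left out. The labels give 100000 cells per replicate. The methods give another number of cells and another strain, and the labels were followed.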

Additional observations from a re-analysis of the deposited data

How the results depend on the processing

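The 5 rises from 0 to 120 h stayed positive in every setting in which the region could be measured. Centring each library on its median raised them to 3.19 for *Camta1*, 3.10 for *Mxi1*, 3.02 for *Dlx4*, 2.94 for *Mapk4* and 2.92 for *Deaf1* on the log2 scale, and the replicate block after centring gave the same values. For *Camta1*, the rise was 2.73 with quantile normalization and 1.66 with the mean signal of the peak. With the mean signal it was 1.82 for *Mxi1*, 1.88 for *Dlx4*, 1.98 for *Mapk4* and 1.76 for *Deaf1*. *Camta1* thus had the smallest of the 5 rises by that measure. With each library left out in turn the rises were 2.09 to 2.51 for *Camta1*, 1.49 to 2.92 for *Mxi1*, 1.54 to 2.71 for *Dlx4*, 1.68 to 2.41 for *Mapk4* and 1.45 to 2.60 for *Deaf1*. *Mxi1* had the largest of the 5 without 0 h replicate 1 (2.60, against 2.40 for *Camta1*). The same held without 120 h replicate 2 (2.92, against 2.51). The *Mxi1* region was not shared among peaks with a value of at least 50, so that setting gave no value for it.

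From 18 to 48 h, none of the 5 regions passed in any setting. Leaving out each library gave -0.25 to 0.49 for *Camta1*, where the change turned negative without 48 h replicate 2, and -0.11 to 0.32 for *Mapk4*, where it turned negative without 18 h replicate 1 (-0.11) and without 48 h replicate 2 (-0.10). The number of regions past the threshold in this step, 1, became 0 with centring, with quantile normalization, with the replicate block, with the block after centring and with windows of 100 bp around summits, 2 with the mean signal, 8 with the libraries of the timepoints compared alone and 0 to 8 with each library left out.

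From 0 to 120 h, 137 regions were higher and 6955 lower. These became 3568 and 2449 with centring, 1358 and 1586 with quantile normalization, 3729 and 2550 with the block after centring, and 87 and 4211 among peaks with a value of at least 50, where 11657 regions were tested. With each library left out they were 70 to 242 and 3585 to 9328. Of the 19 other regions of the 5 genes, those higher and lower were 7 and 1 with centring, 5 and 1 with quantile normalization and 8 and 1 with the block after centring. The number lower was 5 with the libraries compared alone, and 1 was higher with an intensity trend. With each library left out, 0 to 1 were higher and 2 to 10 lower. In the related lists those higher and lower were 12 and 5 with centring, 1 and 4 with quantile normalization and 12 and 5 with the block after centring, and 6 to 28 were lower with each library left out. A library left out of a timepoint leaves a lone library there, which is then assumed to vary like the others. The cause of these differences was not tested. The libraries of the same replicate number did not deviate together (correlations between -0.22 and 0.25), and besides the count from 18 to 48 h, the replicate block without centring moved no count by over 1.5 times, with 123 regions higher and 6389 lower, 7 of the 19 lower and 14 of the 50 in the related lists lower.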

Other observations

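Of the 100 shared regions with the largest rises from 0 to 120 h, 36 were 370 to 390 bp wide, as the *Mapk4* region is, against 0.875% of all shared regions. A CpG island was present in 1% of the 100 and in 58.6% of all shared regions. The letters ACANTGT, which read the same on both strands, were searched after the values were seen. They occurred in the windows of *Mxi1* (at 2 positions), *Dlx4* (at 1) and *Deaf1* (at 2, once in each copy of the repeated stretch), and in those of neither *Camta1* nor *Mapk4*. They were found in 14.7% of all shared windows, in 31.6% of those without a CpG island, in 46.9% of the 64 largest rises of other widths and in 11.1% of the 36 of 370 to 390 bp. GGGCGG was found in 3% of the 100. The rule that chose the 100 used the same heights, so these are descriptions.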
